A study of Mus musculus with 12 samples.

Results

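The genes described here are 48 mouse genes of the G2 phase and of mitosis that build the spindle and separate the chromosomes. They were listed by name for their known roles, at a time when earlier results of these data were known, and each was found as 1 of the 55401 genes in the deposited table of read counts. All 48 passed the filter on low counts that left 14079 genes in the tests, so none had to be dropped. By role they fall into 9 groups, from the cyclins that start mitosis to the proteins that cut the cell apart at its end.

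The study looked at the inhibitory receptor Siglec-E in dendritic cells. RNA sequencing measured polyadenylated RNA from Sp37A3, a dendritic cell line taken from the spleen of C57BL/6 mice and kept in medium with GM-CSF and M-CSF. CtrV cells carried the empty lentiCRISPRv2 vector, while EKO cells were a pool of clones in which CRISPR-Cas9 had been directed at Siglece. Each line was pulsed with ovalbumin (OVA, 0.1 mg/ml for 2 h) or left unpulsed, and all cells had LPS for 24 h before harvest, at 0.1 µg/ml in the pulsed cells and at a dose that the labels do not give in the unpulsed cells. This made 4 groups of 3 libraries, 12 in all: unpulsed CtrV, OVA-pulsed CtrV, unpulsed EKO and OVA-pulsed EKO. Nothing in the labels says whether replicates were separate cultures, so the p-values measure the spread between these libraries, which may be technical. The Cas9 vector was shared by both lines. According to the paper, EKO clones were grown from single sorted cells and screened for Siglec-E before several were pooled, while cloning of CtrV cells is not described. Each line is 1 transduced population, so a difference between CtrV and EKO is a difference between these populations of cells.

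The libraries held 27116201 to 39698572 counts. Siglece mRNA was not lower in EKO cells: it stood at 152, 153 and 163 CPM in OVA-pulsed CtrV and at 174, 208 and 202 CPM in OVA-pulsed EKO, and at 153, 150.2 and 162 CPM against 166, 222 and 235 CPM in unpulsed cells. CPM sets a gene's count against the total of its library after TMM scaling. Siglece was called higher in EKO cells by edgeR after OVA (log2 fold change 0.31, adjusted p = 0.0106) and unpulsed (0.41, adjusted p = 0.0026). The call after OVA ended without replicate 2 of OVA-pulsed CtrV or of OVA-pulsed EKO cells (adjusted p up to 0.0729). The labels do not say which part of the gene was edited, and an edit can stop a protein without lowering its mRNA. For the clones that were pooled, the paper reports minimal or no Siglec-E expression, and its methods print the guide sequence. The counts do not check this, and the cells are called EKO-labelled here. Of 8 dendritic cell markers, Itgax, H2-Aa, H2-Ab1, Cd74, Zbtb46 and Irf8 were well expressed in all groups, while Flt3 and Batf3 were low, at group means of 1.36 to 4.67 CPM and 3.25 to 10.5 CPM. The 6 macrophage markers summed to 1580 to 1778 CPM in the CtrV libraries and to 2179 to 2423 CPM in the EKO-labelled ones, and the T cell, B cell, fibroblast and erythroid marker lists each stayed at or below 1.18 CPM in every library. In both marker lists more genes were called higher than lower in EKO-labelled cells. Of the 8 dendritic cell markers, 5 were called higher and 1 lower after OVA (median log2 fold change 0.50), and 4 higher and 1 lower unpulsed (median 0.54). Fcgr1, C1qa, Csf1r and Cd68, 4 of the 6 macrophage markers, were called higher in both settings (medians of the 6 of 0.47 and 0.51). The remaining 2, Adgre1 and Mertk, were not called in either setting. Both had a log2 fold change below 0 after OVA, and 1 had unpulsed. Among all tested genes 25.1% were called higher after OVA and 24.5% unpulsed, and the part of either marker list in the differences below was not tested.

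Cyclin B with Cdk1 drives the cell into mitosis, where condensin and topoisomerase II compact the chromosomes, kinesins and microtubule-binding proteins shape the spindle, and kinetochores built on centromeres hold the chromosomes to it. A checkpoint kept by Bub1, Mad2 and Ttk holds back the anaphase-promoting complex until all chromosomes are attached, and Cdc20 then lets that complex destroy securin and cyclin B. Most of these genes are transcribed only as cells near mitosis, through promoters that carry a cell cycle homology region (CHR) and CCAAT boxes, and an immature dendritic cell line that is grown with growth factors divides, whereas dendritic cells that mature leave the cycle.

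To show how the motifs lie in such promoters, the bases just before the start site annotated by RefSeq (GRCm38.p6) are printed for 5 members from 4 roles, 5′ to 3′ on the gene's own strand, with motif matches on either strand in capitals. The 5 were picked by hand as examples. A CHR appears as TTTGAA and, when it lies on the opposite strand, as TTCAAA. The only variant of it searched for was TTCGAA. Boxes with CCAAT on the opposite strand appear as ATTGG. The E2F site of the Cdk1 promoter reads TTTCGCGC. Cdk1 is at chr10:69352913-69353052 (minus strand), Cdc20 at chr4:118437344-118437483 (minus), Ube2c at chr2:164769789-164769927 (plus), Kif11 at chr19:37376242-37376381 (plus) and Top2a at chr11:99024190-99024329 (minus).
Cdk1: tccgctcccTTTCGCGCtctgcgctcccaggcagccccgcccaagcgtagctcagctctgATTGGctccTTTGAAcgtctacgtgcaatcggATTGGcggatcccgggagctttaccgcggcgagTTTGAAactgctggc
Cdc20: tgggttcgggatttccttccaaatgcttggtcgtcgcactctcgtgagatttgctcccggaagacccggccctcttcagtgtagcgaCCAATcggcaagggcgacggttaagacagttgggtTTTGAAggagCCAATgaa
Ube2c: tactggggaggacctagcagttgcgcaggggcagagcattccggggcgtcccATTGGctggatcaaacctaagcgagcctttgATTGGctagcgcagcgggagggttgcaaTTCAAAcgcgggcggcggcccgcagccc
Kif11: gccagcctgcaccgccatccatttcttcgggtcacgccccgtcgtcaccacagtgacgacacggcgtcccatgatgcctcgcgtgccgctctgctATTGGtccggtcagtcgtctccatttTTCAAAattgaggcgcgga
Top2a: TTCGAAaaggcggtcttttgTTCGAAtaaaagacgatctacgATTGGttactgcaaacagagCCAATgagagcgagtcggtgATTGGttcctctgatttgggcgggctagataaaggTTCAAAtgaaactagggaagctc
In each of these stretches a CHR lies within 40 bases of the start, with at least 1 CCAAT box further upstream. The examples do not stand for all members: of 39 with a promoter window, 26 held both motifs.

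The first comparison asked how the mitotic genes differed between EKO-labelled and CtrV cells after OVA and LPS. Of the 48 genes, 44 were called lower in EKO-labelled cells (edgeR quasi-likelihood test, Benjamini-Hochberg adjusted p below 0.05), 1 was called higher and 3 were not called. Among all 14079 tested genes, 21.9% were called lower and 25.1% higher. The log2 fold changes of the members ran from -1.13 for Cenpf to 0.73 for Pttg1 with a median of -0.58, a fall of 33.3%, beside a median of 0.00 over all tested genes. Read against the share of genes called lower in the whole table, the members were called lower far more often than genes at large, but Cenpf alone fell by more than 1 on the log2 scale. In bulk RNA, fewer cells in mitosis and less RNA of these genes per cell cannot be told apart.

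In unpulsed cells most of the members were lower as well. Here 33 of 48 were called lower, 1 was called higher and 14 were not called, beside 21.9% lower and 24.5% higher among all tested genes, and the median log2 fold change was -0.45 against 0.00 over all genes. All 33 were among the 44 called lower after OVA, and no member was called lower in unpulsed cells alone. The fit held the replicate number, which the labels share across groups, as a block. Without that block 35 members were called lower after OVA and 20 in unpulsed cells, and Ect2 unpulsed (adjusted p = 0.0825), Incenp after OVA (0.096) and Tpx2 after OVA (0.106) were among the calls that ended. Both comparisons used separate libraries, but all 12 shared 1 estimate of the spread and the replicate effects of the fit. OVA-pulsed and unpulsed EKO-labelled libraries with the same number also deviated together from their group means. Their Pearson r across genes was 0.706, 0.351 and 0.411 for numbers 1 to 3, and 0.077, 0.179 and 0.373 in CtrV. The unpulsed result is therefore not independent of the one after OVA.

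**Figure D1:**
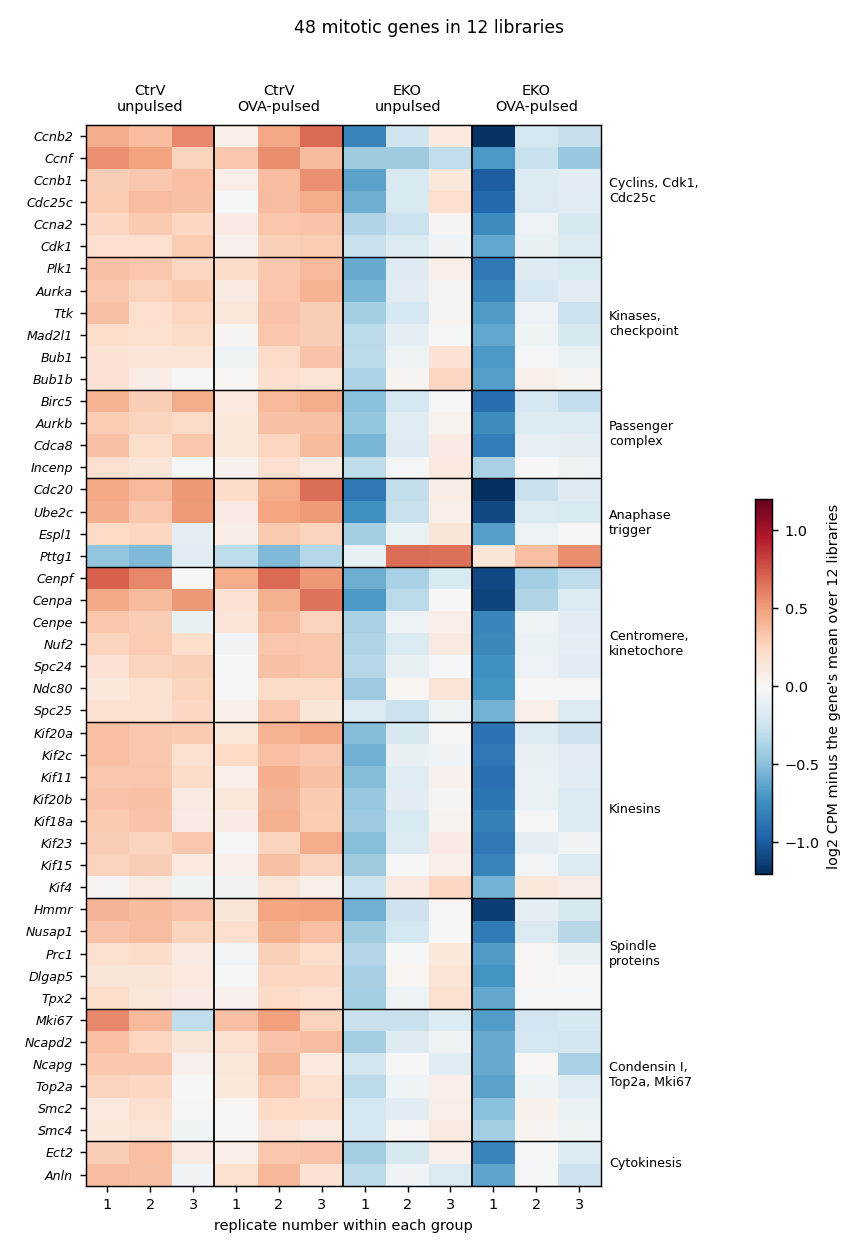
Level of the 48 members in the 12 libraries as log2 CPM minus each gene's mean over the libraries (colour scale, blue low and red high), with genes grouped by role and sorted by their change in OVA-pulsed cells. The 6 CtrV libraries are mostly red, though replicate 1 of OVA-pulsed CtrV lies near the mean (median 0.09) and below it for some genes. The first replicate of OVA-pulsed EKO-labelled cells is the bluest column, and Pttg1 runs against the rest.

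The separation of the libraries can also be counted without a model. After OVA, 38 members were lower in every EKO-labelled library than in every CtrV library, 1 was higher in every one and 9 overlapped. Over all tested genes, 25.9% were lower in every EKO-labelled library. In unpulsed cells 32 members separated downwards, 1 upwards and 15 overlapped, beside 22.9% of all genes separating downwards.

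The cyclins, Cdk1 and its activating phosphatase Cdc25c form the engine of entry into mitosis, and all 6 were called lower in both comparisons, with median log2 fold changes of -0.71 after OVA and -0.54 without. Ccnb2, the cyclin B of the Golgi region, stood at 83.5, 111 and 129 CPM in OVA-pulsed CtrV and at 35.4, 69.3 and 66.2 CPM in OVA-pulsed EKO-labelled cells. In unpulsed cells it stood at 108, 104 and 120.1 CPM and 46.3, 68.2 and 87.0 CPM. In both settings the highest EKO-labelled library was below the lowest CtrV one, with log2 fold changes of -0.94 ± 0.15 (SE, n = 3 per group, edgeR adjusted p = 0.00056) and -0.78 ± 0.15 (adjusted p = 0.002). It had the highest level per length of the group, at a mean of 56.0 CPM per kb of exon over the 12 libraries, just above Ccna2 (cyclin A) at 53.9 and well above Cdk1 at 25.1, the kinase that these cyclins activate.

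Ccnf, an F-box protein that marks other cell cycle proteins for destruction, changed by similar amounts in both settings. Its level was 123, 144 and 128 CPM in OVA-pulsed CtrV against 61.0, 81.6 and 71.6 CPM in EKO-labelled cells, and 143, 138 and 119 against 73.2, 73.1 and 80.1 CPM without OVA. All 6 EKO-labelled libraries lay far below the controls, giving -0.89 ± 0.10 (edgeR adjusted p = 3.3e-05) and -0.82 ± 0.10 (adjusted p = 6.2e-05), the smallest adjusted p among the members in each comparison. Cdk1 itself fell less, by 0.50 and 0.40 on the log2 scale, from group means of 141 ± 13.6 to 100.3 ± 19.0 CPM after OVA (SD, n = 3). Ccnb1, the main mitotic cyclin B, had log2 fold changes of -0.74 ± 0.13 and -0.56 ± 0.13, Ccna2 of -0.59 ± 0.11 and -0.47 ± 0.11 and Cdc25c of -0.68 ± 0.13 and -0.52 ± 0.13 (after OVA and unpulsed, SE). The Cdc25c libraries read 18.2, 23.8 and 25.0 CPM in OVA-pulsed CtrV and 9.598, 16.2 and 16.6 CPM in OVA-pulsed EKO-labelled cells, and 22.7, 23.7 and 23.5 against 12.2, 16.2 and 21.1 CPM unpulsed, with no overlap in either setting.

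Ccnb1 shares its sequence with 5 pseudogenes of at least 96.1% identity, whose counts ran from 2.92% to 77.4% of its own, so its reads may be split among them. With the 6 genes' counts summed the log2 fold changes were -0.74 after OVA and -0.57 unpulsed (edgeR adjusted p = 0.00097 and 0.0048). Summing the copies thus left both changes nearly as they were. Cdc25c shares 12.7% and Ccna2 12.5% of its exon bases with a gene on the opposite strand (Gm3550 and Exosc9), and no strand setting is stated for the counting. The counts of Gm3550 came to 97.2% of those of Cdc25c, and the counts of Exosc9 to 19.2% of those of Ccna2. How many reads the genes of each pair share was not tested.

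The mitotic kinases and the spindle checkpoint had 5 of 6 members called lower after OVA and 4 of 6 unpulsed, with medians of -0.54 and -0.42. Plk1, the kinase of centrosome maturation and cytokinesis, and Aurka, which works at the spindle poles, fell most, by 0.70 and 0.65 on the log2 scale after OVA and by 0.54 and 0.53 unpulsed. Plk1 went from 117 ± 6.77 to 72.9 ± 18.3 CPM and Aurka from 91.4 ± 9.93 to 58.8 ± 13.5 CPM (mean ± SD, n = 3). Among the checkpoint genes, the kinase Ttk changed by -0.58 ± 0.12 and -0.47 ± 0.12 and Mad2l1, which encodes the Mad2 inhibitor of Cdc20, by -0.50 ± 0.09 and -0.36 ± 0.09 (SE).

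The Bub genes, whose proteins sit at the kinetochore, moved less. Bub1 changed by -0.42 ± 0.11 after OVA (edgeR adjusted p = 0.0098) and by -0.24 ± 0.11 unpulsed (adjusted p = 0.102). Bub1b, which encodes BubR1 and had the highest level per length of the group, read 199, 226 and 220.4 CPM in OVA-pulsed CtrV and 124, 205 and 201 CPM in OVA-pulsed EKO-labelled cells, and 221, 209 and 197 against 152, 201 and 235 CPM unpulsed. Only the first EKO-labelled replicate stood clearly below the controls, the groups overlapped, and neither change was called (-0.31 ± 0.15, adjusted p = 0.106, and -0.12 ± 0.15, adjusted p = 0.524). Without replicate 1 of unpulsed CtrV the change after OVA was called (adjusted p = 0.0282).

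The chromosomal passenger complex corrects wrong attachments and later guides the cleavage furrow, and its 4 genes were all called lower after OVA and 3 of 4 unpulsed (medians -0.61 and -0.48). Birc5 (survivin) stood at 99.1, 119.9 and 124 CPM in OVA-pulsed CtrV and 48.9, 79.6 and 74.6 CPM in OVA-pulsed EKO-labelled cells, and at 122, 113 and 124 against 64.6, 79.1 and 91.7 CPM unpulsed, without overlap. Birc5, the kinase gene Aurkb and Cdca8 (borealin) changed by -0.77 ± 0.12, -0.63 ± 0.11 and -0.59 ± 0.14 after OVA and by -0.63 ± 0.12, -0.46 ± 0.11 and -0.50 ± 0.14 unpulsed. Incenp, the scaffold that holds the other 3 together, stood at 147, 163 and 153 CPM in OVA-pulsed CtrV and 108, 141 and 136 CPM in OVA-pulsed EKO-labelled cells, and at 162, 157 and 140.3 against 115, 139 and 154 CPM unpulsed. After OVA its libraries just separated and the change was near the threshold (-0.27 ± 0.10, edgeR adjusted p = 0.0477), and unpulsed they overlapped (-0.18 ± 0.10, adjusted p = 0.171). The call after OVA was lost when any of 8 of the 12 libraries was left out, all 6 OVA-pulsed ones and replicate 2 of both unpulsed groups, with adjusted p up to 0.211. The scaffold thus had a smaller change than its partners in both settings, although differences between members were not tested.

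After OVA, the genes that trigger anaphase held both the second most negative member and the only positive one. Cdc20, the activator of the anaphase-promoting complex, stood at 85.8, 100.7 and 118 CPM in OVA-pulsed CtrV and at 31.5, 61.3 and 66.3 CPM in EKO-labelled cells, and at 102, 96.9 and 106 against 40.7, 60.8 and 78.5 CPM unpulsed. Its groups did not overlap in either setting, with changes of -0.98 ± 0.17 (edgeR adjusted p = 0.00087) and -0.82 ± 0.17 (adjusted p = 0.0028). Ube2c, the ubiquitin-conjugating enzyme that works with the same complex, read 118, 153 and 157 against 51.9, 97.5 and 96.8 CPM after OVA and 149, 138 and 157 against 66.0, 91.4 and 116 CPM unpulsed. It followed Cdc20 closely, with -0.83 ± 0.15 (adjusted p = 0.0013) and -0.75 ± 0.15 (adjusted p = 0.0027). Of its exon bases, 22.8% lie opposite Tnnc2.

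Espl1, which encodes the separase that cuts cohesin, changed by -0.45 ± 0.15 after OVA (edgeR adjusted p = 0.0301) and by -0.25 ± 0.15 unpulsed (adjusted p = 0.197). Pttg1 encodes securin, the inhibitor that holds separase back until the complex destroys it. It read 27.8, 23.8 and 27.0 CPM in OVA-pulsed CtrV and 37.9, 44.1 and 50.4 CPM in OVA-pulsed EKO-labelled cells, and 24.6, 23.8 and 31.4 against 32.1, 54.3 and 54.0 CPM unpulsed. Every EKO-labelled library was above every CtrV library within each setting, the reverse of its neighbours in the pathway, and the change was 0.73 ± 0.15 (adjusted p = 0.0021) and 0.81 ± 0.15 (adjusted p = 0.0013). As a fold, EKO-labelled cells had 66.3% more Pttg1 RNA after OVA and 74.8% more without it. The call and its direction held under every alternative fit tried, apart from the limit of 1 on the log2 fold change, which it did not reach.

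**Figure D2:**
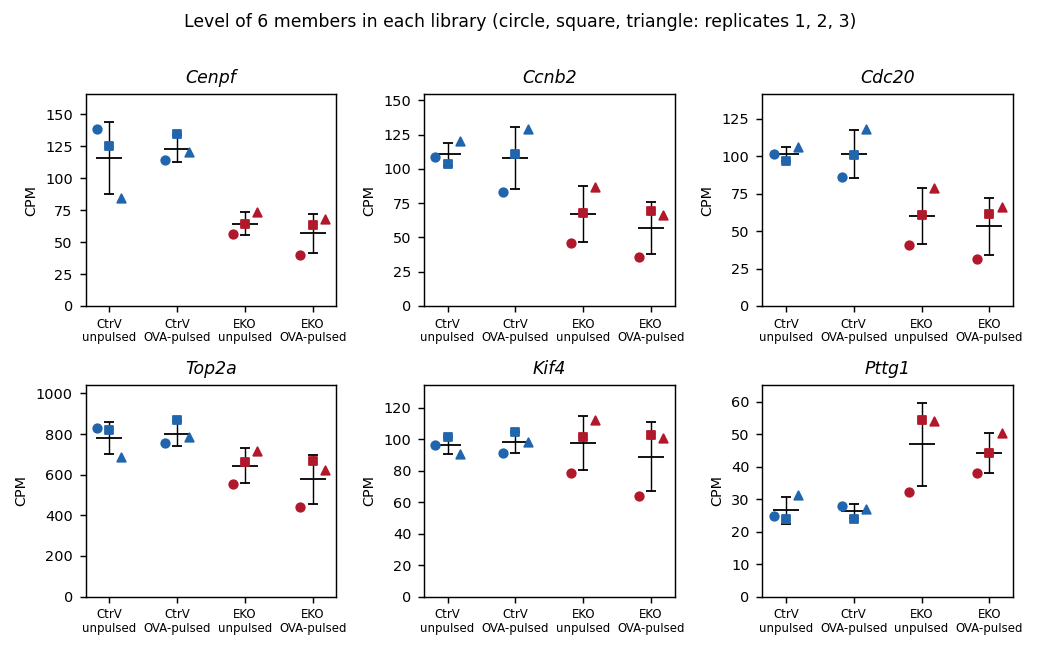
CPM of 6 members in each library, by group, on linear axes that start at 0, with circles, squares and triangles for replicates 1, 2 and 3, and the mean and SD in black. Cenpf, Ccnb2 and Cdc20 are lower in EKO-labelled cells, Top2a less so, Kif4 overlaps, and Pttg1 is higher.

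At the centromere and kinetochore, where chromosomes meet the spindle, all 7 members were called lower after OVA and 5 unpulsed (medians -0.52 and -0.40). Cenpf, a large protein that joins the outer kinetochore late in G2, was the most negative of all 48 members in both comparisons. It stood at 115, 135 and 120.4 CPM in OVA-pulsed CtrV and 39.5, 63.1 and 68.0 CPM in EKO-labelled cells, and at 138, 125 and 84.2 against 56.1, 63.9 and 73.8 CPM unpulsed. Its groups did not overlap, though the third unpulsed CtrV library lay closer to the EKO-labelled ones than the other two, and the changes were -1.13 ± 0.21 (edgeR adjusted p = 0.0012) and -0.85 ± 0.21 (adjusted p = 0.0063). Cenpf was the only member to fall below -1 on the log2 scale.

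Cenpa, the histone H3 variant that marks the centromere, was next among these. It read 76.4, 91.03 and 106 CPM in OVA-pulsed CtrV against 31.5, 52.8 and 60.2 CPM in EKO-labelled cells, and 92.6, 88.1 and 97.2 against 41.9, 54.0 and 67.8 CPM unpulsed. Every EKO-labelled library was lower than every CtrV library, with -0.95 ± 0.13 (edgeR adjusted p = 0.0002) and -0.80 ± 0.13 (adjusted p = 0.00068). The 4 genes of the Ndc80 complex, which grips the microtubule end, moved by less and in a narrow band after OVA, -0.52 for Nuf2, -0.52 for Spc24, -0.39 for Ndc80 and -0.38 for Spc25. Spc25 had the highest level per length of the 7 and stood at 58.1, 69.6 and 61.7 CPM in OVA-pulsed CtrV and 37.6, 59.0 and 49.8 CPM in EKO-labelled cells, where replicate 2 overlapped the controls, and at 63.2, 63.4 and 66.1 against 49.4, 46.6 and 53.5 CPM unpulsed, where none did. Its change was nearly the same in both settings (-0.38 ± 0.11, adjusted p = 0.0167, and -0.37 ± 0.11, adjusted p = 0.0211). Leaving out replicate 2 of OVA-pulsed CtrV or replicate 1 or 3 of OVA-pulsed EKO-labelled cells ended the first call (adjusted p up to 0.0766), and leaving out replicate 1 or 3 of unpulsed CtrV or replicate 2 of unpulsed EKO-labelled cells the other (up to 0.106). Cenpe, the kinesin that moves chromosomes to the spindle equator, changed by -0.58 ± 0.16 (adjusted p = 0.0118) and by -0.32 ± 0.16 unpulsed (adjusted p = 0.123), the latter not called.

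Of the 8 kinesins, motors that slide, cap or shorten spindle microtubules, 7 were called lower in both settings (medians -0.62 and -0.48). Kif20a, needed at the midzone for cytokinesis and highest per length, stood at 196, 239 and 244 CPM in OVA-pulsed CtrV and 96.9, 159.8 and 150.1 CPM in EKO-labelled cells, and at 229, 223 and 222 against 124, 156 and 180.4 CPM unpulsed. Each EKO-labelled library was lower than each CtrV one, giving -0.76 ± 0.12 (edgeR adjusted p = 0.00051) and -0.57 ± 0.12 (adjusted p = 0.0031). Kif20a shares 29.3% of its exon bases with Cdc23 on the opposite strand, whose own log2 fold changes were -0.19 and -0.11. Kif11, the motor that pushes the spindle poles apart, and Kif15, which backs it up, changed by -0.65 ± 0.14 and -0.55 ± 0.13 after OVA. Kif2c, which depolymerises microtubules at the centromere, changed by -0.66 ± 0.14, Kif18a, which damps chromosome movements, by -0.60 ± 0.14, and Kif23, a part of centralspindlin, by -0.56 ± 0.12. For Kif20b the change was -0.64 ± 0.14. Unpulsed, these 6 genes lay between -0.53 and -0.36.

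Kif4, the chromokinesin that acts on chromosome arms and at the midzone, was the exception. It stood at 91.3, 105 and 98.1 CPM in OVA-pulsed CtrV and 63.7, 103 and 100.4 CPM in EKO-labelled cells, and at 96.1, 101.3 and 90.6 against 78.7, 101.2 and 112 CPM unpulsed. Replicate 1 of each EKO-labelled group was the lowest of its comparison and the others lay among or above the controls, so that the changes of -0.16 ± 0.12 (edgeR adjusted p = 0.294) and 0.00 ± 0.12 (adjusted p = 0.992) were not called. Its exons share 15.1% of their bases with Pdzd11 on the opposite strand.

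The 5 spindle proteins that bind and bundle microtubules were all called lower after OVA, but only Hmmr and Nusap1 were called unpulsed (medians -0.40 and -0.26). Hmmr, a spindle pole protein, changed by -0.82 ± 0.16 and -0.66 ± 0.16. Nusap1, which bundles microtubules near chromosomes, stood at 121, 141 and 135 CPM in OVA-pulsed CtrV and 58.7, 93.3 and 83.5 CPM in EKO-labelled cells, and at 133, 136 and 127 against 78.2, 90.9 and 106 CPM unpulsed. It separated in both settings, with -0.77 ± 0.11 (edgeR adjusted p = 0.00027) and -0.54 ± 0.11 (adjusted p = 0.0028). Tpx2, the activator of Aurora A and the highest of the 5 per length, read 182, 206 and 199.7 against 115, 173 and 172 CPM after OVA and 203, 193 and 188 against 132, 168 and 199.8 CPM unpulsed. Unpulsed EKO-labelled replicate 3 reached the controls, and the change was called after OVA (-0.37 ± 0.13, adjusted p = 0.0338) and not unpulsed (-0.25 ± 0.13, adjusted p = 0.136). The call after OVA ended without replicate 1 or 2 of OVA-pulsed CtrV or replicate 1 or 3 of OVA-pulsed EKO-labelled cells (adjusted p up to 0.168). Prc1, which links antiparallel microtubules of the midzone, and Dlgap5, which stabilises kinetochore fibres, resembled Tpx2, at -0.40 and -0.38 after OVA and -0.26 and -0.21 unpulsed. Prc1 shares 11.1% of its exon bases with Rccd1 on the opposite strand.

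Among the genes of chromosome compaction and the chromosome surface, 5 of 6 were called lower after OVA and 2 unpulsed (medians -0.51 and -0.32). Top2a, the topoisomerase that untangles sister DNA, had the highest level per length of all 48 members, 77.8 CPM per kb. It stood at 754, 869.8 and 784 CPM in OVA-pulsed CtrV and 441, 667 and 622 CPM in EKO-labelled cells, and at 832, 819 and 689.6 against 553, 664 and 718 CPM unpulsed. The groups separated after OVA (-0.49 ± 0.12, edgeR adjusted p = 0.0075) and overlapped without it, where the third EKO-labelled library was above the third CtrV one (-0.29 ± 0.12, adjusted p = 0.0798). The unpulsed change was called without replicate 3 of unpulsed CtrV or replicate 1 of OVA-pulsed EKO-labelled cells (lowest adjusted p = 0.0226). Mki67, which coats mitotic chromosomes and is the common marker of dividing cells, read 731, 799 and 689 against 358, 485 and 499.9 CPM after OVA and 849, 745 and 465 against 474, 474 and 507 CPM unpulsed. The third unpulsed CtrV library was below all 3 unpulsed EKO-labelled ones, and the unpulsed change of -0.49 ± 0.19 missed the threshold (adjusted p = 0.0531), while the change after OVA was called (-0.72 ± 0.19, adjusted p = 0.0088).

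Condensin I compacts the arms through the paired motors Smc2 and Smc4 and through regulatory subunits such as Ncapg and Ncapd2. The regulatory subunits were called lower in both settings. Ncapd2 stood at 205, 229 and 232 CPM in OVA-pulsed CtrV and 118, 157 and 154 CPM in EKO-labelled cells, and at 231, 215 and 199 against 136, 162 and 172 CPM unpulsed. It separated both times (-0.64 ± 0.10 and -0.47 ± 0.10), as did Ncapg, at 84.6, 101.5 and 83.6 against 50.6, 77.9 and 58.9 CPM after OVA and 96.0, 96.1 and 80.0 against 66.0, 76.5 and 69.4 CPM unpulsed (-0.54 ± 0.10 and -0.36 ± 0.10). Ncapg shares 13.4% of its exon bases with Lcorl on the opposite strand. The motors, which condensin II uses as well, moved less. Smc2 changed by -0.33 ± 0.10 (edgeR adjusted p = 0.0179) and -0.20 ± 0.10 (adjusted p = 0.122). Smc4 stood at 243, 269 and 261 CPM in OVA-pulsed CtrV and 181, 248 and 233 CPM in EKO-labelled cells, and at 265, 272 and 234 against 211, 247 and 262 CPM unpulsed, overlapping in both. Neither of its changes was called (-0.23 ± 0.09, adjusted p = 0.0585, and -0.11 ± 0.09, adjusted p = 0.364), although the one after OVA was called without replicate 1 or 3 of unpulsed CtrV or replicate 2 of OVA-pulsed EKO-labelled cells (lowest adjusted p = 0.0212).

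Both cytokinesis genes were called lower in both settings. Ect2, the exchange factor that switches on RhoA at the furrow, stood at 72.6, 85.7 and 87.0 CPM in OVA-pulsed CtrV and 39.7, 67.7 and 61.2 CPM in EKO-labelled cells, and at 84.4, 87.9 and 73.7 against 51.3, 60.1 and 72.2 CPM unpulsed. The groups did not overlap (-0.56 ± 0.14, edgeR adjusted p = 0.0068, and -0.44 ± 0.14, adjusted p = 0.0244), though the unpulsed call ended without replicate 1 or 2 of either unpulsed group (adjusted p up to 0.119). Anln, the anillin that ties the furrow's actin to its membrane, changed by -0.54 ± 0.12 and -0.41 ± 0.12, with an overlap unpulsed at the third CtrV library.

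**Figure D3:**
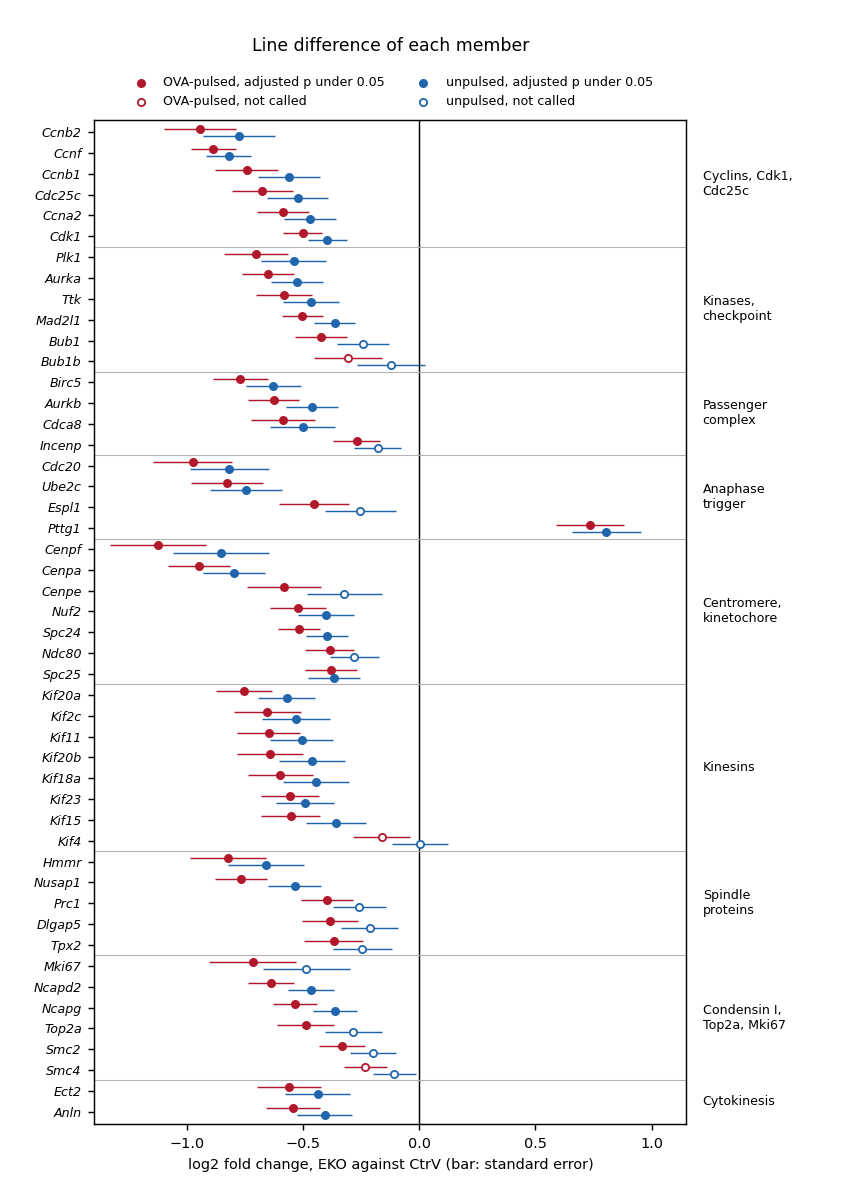
Log2 fold change of EKO-labelled against CtrV cells for each member, with its standard error, after OVA (red) and unpulsed (blue). Filled points were called at an adjusted p below 0.05. After OVA 44 points are called left of 0, 3 are open, and Pttg1 stands alone on the right.

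The second comparison asked whether the OVA pulse itself moved these genes. No member was called in either line, and no gene of the 14079 was (0% called in each direction, with 0 members called, by edgeR and also 0 by DESeq2). In CtrV cells the members' log2 fold changes of OVA-pulsed against unpulsed cells ran from -0.08 to 0.12 with a median of -0.01, and the smallest unadjusted p was 0.518. In EKO-labelled cells they ran from -0.24 to -0.04, all 48 below 0 with a median of -0.16, and the smallest unadjusted p was 0.063, for Nusap1 at -0.23 ± 0.11. At an unadjusted p under 0.05 there were 0 members and 231 genes (1.64%) in CtrV and 0 members and 394 genes (2.8%) in EKO-labelled cells. Both shares are below the 0.05 expected with no effect, so the counts do not show that genes responded. How small a response to the pulse the test could find was not tested. In CtrV cells the members with the smallest p were Birc5 (-0.08 ± 0.12), Mki67 (0.12 ± 0.19) and Cdc25c (-0.08 ± 0.13), and in EKO-labelled cells Nusap1, Ncapg (-0.19 ± 0.10) and Birc5 (-0.22 ± 0.12).

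Pairs of libraries with the same number did not move one way. In CtrV, the median change of the members was -0.20 between the libraries numbered 1, 0.07 between those numbered 2 and 0.12 between those numbered 3. In EKO-labelled cells it was -0.35, 0.02 and -0.21. Without replicate 1 of OVA-pulsed EKO-labelled cells, the EKO-labelled median was -0.01 in place of -0.16.

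Whether the difference between the lines depended on the pulse was tested as an interaction. No member and no gene was called (0% in each direction, by edgeR and also 0 by DESeq2), and 0 members and 269 genes (1.91%) had an unadjusted p under 0.05. That share is again below the 0.05 expected with no effect. The members' interaction terms ran from -0.27 to -0.02 (median -0.15) with standard errors of 0.12 to 0.29, so that no member's term reached 2 standard errors. Those with the smallest p were Nusap1 (-0.23 ± 0.16), Ncapg (-0.17 ± 0.13) and Ncapd2 (-0.17 ± 0.14), each with an adjusted p of 1 by edgeR. The 11 members called after OVA and not unpulsed are therefore not shown to respond to the pulse. The median interaction was -0.33 without replicate 1 of unpulsed CtrV and -0.01 without replicate 1 of OVA-pulsed EKO-labelled cells.

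The members moved together from library to library. With each member set to its mean over the 12 libraries, the median of the 48 was 0.22 to 0.31 (log2) in unpulsed CtrV and 0.09, 0.34 and 0.32 in OVA-pulsed CtrV. It was -0.41, -0.15 and 0.06 in unpulsed EKO-labelled cells and -0.75, -0.07 and -0.16 in OVA-pulsed EKO-labelled cells. Replicate 1 was thus the lowest of both EKO-labelled groups, and the third unpulsed EKO-labelled library came close to the lowest control. As a share of all counts the 48 genes took 0.644% to 0.772% in CtrV libraries, 0.442% to 0.595% in unpulsed EKO-labelled ones and 0.347% to 0.547% in OVA-pulsed EKO-labelled ones. The OVA-pulsed EKO-labelled replicate 1 was also the deepest library (39698572 counts), and the part of depth or of anything else particular to that library in its level was not tested.

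Within groups, deviations of any 2 members from their group means had a median Pearson r of 0.925 over the 12 libraries (1128 pairs, 5% of them below 0.52), a description of points that share libraries and their depth. The 48 genes are therefore not 48 independent measurements. The genes least tied to the others were Mki67 (median r of 0.49), Pttg1 (0.52) and Ncapg (0.65). Pair by pair, the median line difference after OVA was -0.86, -0.42 and -0.48 for replicates 1 to 3, with 47, 47 and 46 of 48 members lower. Unpulsed it was -0.74, -0.41 and -0.19, with 47, 47 and 34 lower. Without both EKO-labelled libraries numbered 1, the medians were -0.40 after OVA (37 members called lower) and -0.35 unpulsed (32 called lower). Without replicate 1 of unpulsed CtrV the unpulsed median was -0.29.

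Genes outside the 48 but near them in the cycle were counted from lists chosen by function. Of 47 other G2/M genes, 38 were called lower after OVA and 1 higher (median -0.50), and 32 lower and 1 higher unpulsed (median -0.36). Racgap1, the partner of Kif23 in centralspindlin, went from 164 ± 19.5 to 106 ± 28.4 CPM after OVA (-0.65 ± 0.13), and Ncaph, a further regulatory subunit of condensin I, from 84.3 ± 7.23 to 60.2 ± 13.03 CPM (-0.50 ± 0.11). Of 23 further centromere and kinetochore genes, 17 were called lower and 1 higher after OVA (median -0.30) and 11 and 1 unpulsed (median -0.18). Their list was named constitutive, and whether their RNA stays even through the cycle was not tested. For cohesin and condensin II the counts were 3 lower and 1 higher of 12 (median -0.12) after OVA and 3 each way unpulsed, with the cohesin subunit Rad21 at -0.38 ± 0.08. For the subunits of the anaphase-promoting complex with Fzr1, its activator after anaphase, they were 4 lower and 2 higher of 15 (median -0.09), with Fzr1 at -0.40 ± 0.05. Beside the 21.9% of all genes called lower, the cohesin and anaphase-promoting complex lists were thus near the background, while the other lists of mitosis were above it.

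Genes of the steps before mitosis changed by less. Of 30 genes of the G1/S transition and DNA replication, 16 were called lower and 0 higher in both settings (medians -0.24 and -0.22), with the helicase subunit gene Mcm5 at -0.36 ± 0.06 and the sliding clamp gene Pcna at -0.15 ± 0.08 (edgeR adjusted p = 0.132) after OVA. Unpulsed, Pcna was called at -0.20 ± 0.08 (adjusted p = 0.0493), a call that ended when any of 8 of the 12 libraries was left out (adjusted p up to 0.211), namely replicates 2 and 3 of all groups but OVA-pulsed EKO-labelled cells and replicates 1 and 3 of the latter. Of 23 factors that act at cell cycle promoters, 9 were called lower and 0 higher after OVA (median -0.19) and 10 and 0 unpulsed. Beside both lists, 21.9% of all tested genes were called lower in either setting, and 25.1% higher after OVA and 24.5% unpulsed. Foxm1, the factor that activates G2/M genes, stood at 82.2, 96.1 and 105 CPM in OVA-pulsed CtrV and 39.0, 62.4 and 64.8 CPM in EKO-labelled cells, without overlap (-0.79 ± 0.14, adjusted p = 0.0012). Mybl2, its partner on the same promoters, changed by -0.39 ± 0.09, and E2f7 and E2f8, repressors that act late in S phase, by -0.43 ± 0.09 and -0.28 ± 0.08. Without the replicate block the calls of E2f7 and E2f8 after OVA ended (edgeR adjusted p = 0.0786 and 0.0533). The E2f8 call also ended when any of 4 of the 12 libraries was left out (adjusted p up to 0.0788). Unpulsed, E2f8 was not called (adjusted p = 0.155). E2f1 (-0.24 ± 0.09), Lin54 (-0.21 ± 0.11), whose protein binds the CHR, and Rbl1 (-0.19 ± 0.09) were not called. E2f1 was near the threshold (edgeR adjusted p = 0.0549) and was called in 8 of 22 alternative fits.

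Upstream of these, the D cyclins that link growth signals to G1 did not share a direction. Ccnd2 stood at 995, 663 and 633 CPM in OVA-pulsed CtrV and 2344, 1209 and 1489.7 CPM in EKO-labelled cells (1.12 ± 0.15, edgeR adjusted p = 0.00017). Ccnd3 stood at 198, 199.98 and 199.9 against 109.8, 88.8 and 84.9 CPM (-1.08 ± 0.08, adjusted p = 1.9e-06). So 1 was more than doubled and the other more than halved, while Ccnd1 gave -0.08 ± 0.10 (adjusted p = 0.562). Of 12 Cdk inhibitors and p53 targets, 10 were tested, with 2 called lower and 4 higher after OVA and 3 each way unpulsed. The shares over all tested genes were 21.9% lower and 25.1% higher after OVA, and 21.9% and 24.5% unpulsed. Of these inhibitors, Cdkn1a (p21) gave -0.09 ± 0.06, Cdkn1b (p27) 0.04 ± 0.07 and Cdkn2c (p18) -0.56 ± 0.09, after OVA, of which the last was called. Unpulsed, Cdkn1b gave -0.01 ± 0.07, which was not called, Cdkn2c -0.47 ± 0.09 (edgeR adjusted p = 0.0014) and Cdkn1a -0.17 ± 0.06 (adjusted p = 0.036). The unpulsed call of Cdkn1a ended without the replicate block (adjusted p = 0.386), without replicate 2 or 3 of either unpulsed group and without replicate 1 of OVA-pulsed EKO-labelled cells (adjusted p up to 0.171).

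**Figure D4:**
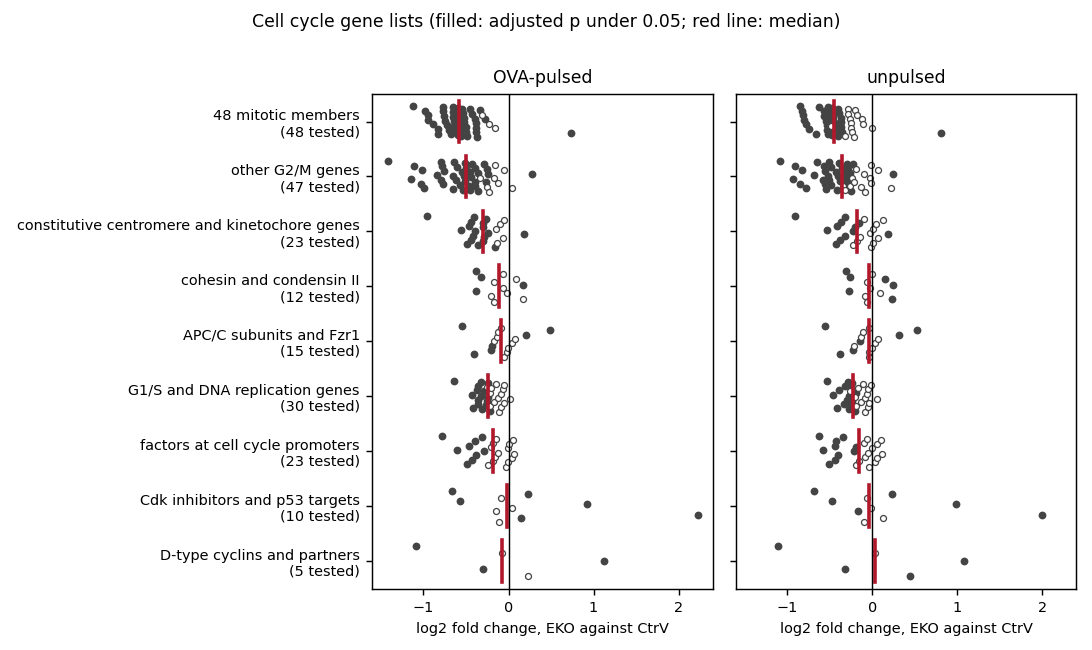
Log2 fold change of EKO-labelled against CtrV cells for every tested gene of the 48 members and of 8 other cell cycle lists, after OVA (left) and unpulsed (right). Filled points were called at an adjusted p below 0.05, and the red line is the list's median. The members and the other G2/M genes lie furthest left, and the lists of D cyclins and Cdk inhibitors spread to both sides.

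The promoters of the members were then read for the motifs shown above. RefSeq windows of 250 bases before to 50 after the start were at hand for 39 members (41 windows). The CHR was searched as TTTGAA or TTCGAA, the CCAAT box as CCAAT and E2F sites as TTTGGCGC, TTTCCCGC, TTTCGCGC or TTTGCCGC, on both strands, and overlaps between different motifs were allowed. A CHR was found in 31 of 39 members (79.5%), against 16.6% of 8859 other tested genes and 21.7% of all 27025 genes with a window. CCAAT was found in 28 members (71.8%, against 43.5% and 41.1%), and both in 26 (66.7%, against 6.92% and 8.61%). E2F sites were found in 5 members (12.8%, against 4.83% and 2.6%). A CHR within 40 bases of the start was found in 27 members (69.2%) and in 3.63% of other tested genes.

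**Figure D5:**
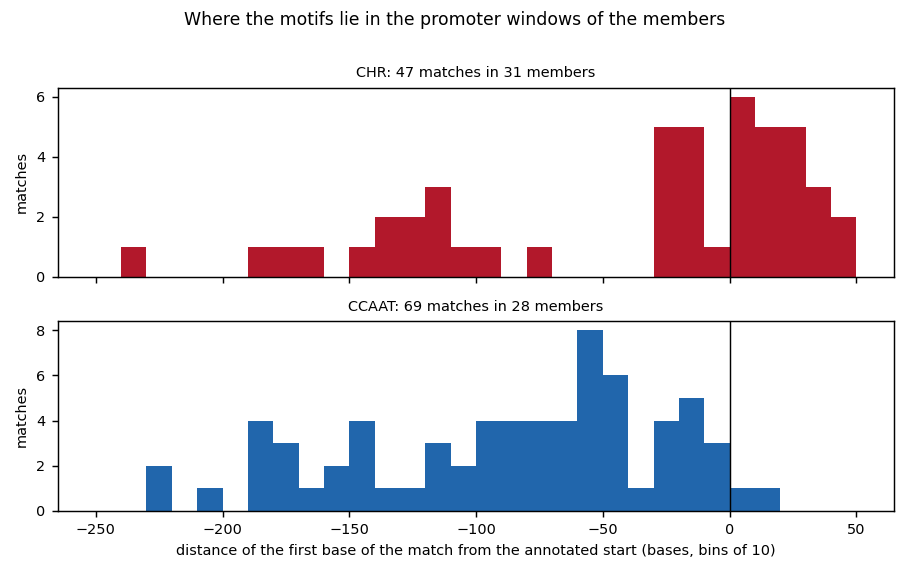
Number of CHR matches (top) and CCAAT matches (bottom) in the promoter windows of the members by distance from the annotated start, in bins of 10 bases. Of 47 CHR matches 31 lie within 40 bases of the start, while the 69 CCAAT matches have their median 78 bases before it. Ect2 and Prc1 have 2 overlapping windows each, and a site that lies in both is counted once per window.

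A match is a description of letters, and members with and without a CHR had like changes between the lines. The 31 members with a CHR had a median log2 fold change of -0.58 after OVA (29 called lower) and -0.47 unpulsed. The 8 with a window and no CHR, Ccnb1, Mad2l1, Birc5, Pttg1, Cenpe, Nuf2, Kif18a and Nusap1, had medians of -0.59 (7 called lower, 1 higher) and -0.42. The window of Pttg1 held none of the 3 motifs, nor did those of Mad2l1, Birc5, Nuf2 and Nusap1, which were called lower. The Pttg1 window lies inside the Ensembl gene model, which starts further upstream, and the lack of a match says only that these letters are not in this window.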

How the data were processed

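Polyadenylated RNA of 12 libraries was sequenced. According to the study's methods and the submitters' processing notes, the authors aligned stranded reads to mm10 with STAR, processed them with SAMtools and counted the reads that start in a gene's exons with featureCounts. The strand setting is not given in the sources used here. The deposited values are raw counts per Ensembl gene.

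All 55401 genes entered R 4.3.3 and edgeR 4.0.16. Genes above a log2 CPM of 0 in at least 2 libraries were kept (14079), scaled by TMM and fitted over all groups with the replicate number as a block, as in the study's methods, by quasi-likelihood with Benjamini-Hochberg adjustment and a limit of 0.05. The SE given with an edgeR log2 fold change was derived from the F statistic of this fit, whose estimate of the spread used all 12 libraries. It is thus tied to the unadjusted p and is not a separate estimate from the 3 libraries of each group. Samples were grouped by their labels. In OVA-pulsed cells, libraries sharing a number deviated together from their group means (Pearson r across genes of 0.448, 0.292 and 0.289 for numbers 1 to 3), and in unpulsed cells hardly (0.060, -0.012 and 0.263), and no label says what a number stands for. No replicates were near-identical (chi-square per degree of freedom from 4.88). Alternatives were other scalings, filters, limits, DESeq2 1.42.0, limma 3.58.1 voom, the compared libraries alone, no block, and libraries left out.

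The 48 genes and the other lists were chosen with earlier results of these data known. Values per library are given for the highest member per kb in each role, the 4 with the most and the 4 with the least negative log2 fold change in each line comparison, and the 3 with the smallest p in each other comparison. Other members are given by fold change. Counts per member ran from 318 to 28788 per library. The test was also run on simulated counts with known changes, drawn independently for each gene and library and without replicate effects. That check does not cover the shared movement of the members described above. Positions and exon overlaps came from GENCODE annotation of GRCm38, promoters from RefSeq.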

Additional observations from a re-analysis of the deposited data

How the results depend on the processing

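Without the replicate block the members called lower numbered 35 after OVA and 20 unpulsed, against 44 and 33 with it, and 9 calls of genes given above ended. The other settings without left-out libraries gave 35 to 46 members called lower after OVA and 22 to 37 unpulsed, the least at an adjusted p below 0.01, and DESeq2 gave 45 and 35. A limit of 1 on the log2 fold change left 1 member called lower after OVA (Cenpf), 0 lower unpulsed, 0 higher after OVA and 0 higher unpulsed. With single libraries left out, members called lower ran from 35 to 46 after OVA and from 24 to 40 unpulsed, and their medians from -0.70 to -0.42 and from -0.56 to -0.29 (the last without replicate 1 of unpulsed CtrV). The median dependence on the pulse ran from -0.325 to -0.01399. Without both EKO-labelled libraries numbered 1 the changes of Bub1b (0.057), Cdkn1b (0.015), Lin54 (0.039) and Rbl1 (0.038) unpulsed and of Ccnd1 (0.054) and Kif4 (0.030) after OVA were above 0. Unpulsed Kif4 was -0.00046 under RLE scaling, -0.048 under upper-quartile scaling, -0.00134 by DESeq2 and -0.00099 with no filter, and unpulsed Ccnd1 -0.021 under upper-quartile scaling. With single libraries left out, unpulsed log2 fold changes ran from -0.2548 to 0.08339 for Bub1b, -0.06857 to 0.1383 for Ccnd1, -0.05862 to 0.07172 for Cdkn1b, -0.1098 to 0.1462 for Kif4, -0.195 to 0.02675 for Lin54, -0.1505 to 0.03471 for Rbl1 and -0.212 to 0.007782 for Smc4. After OVA they ran from -0.1556 to 0.01563 for Ccnd1 and -0.008295 to 0.1021 for Cdkn1b, and the OVA effect in CtrV from -0.1807 to 0.09653 for Birc5, -0.2079 to 0.1046 for Cdc25c and -0.1344 to 0.3659 for Mki67. None of these 12 changes was called with all libraries in the fit, and the cause of the changes of sign was not tested. A newer form of the quasi-likelihood fit was added after seeing the data, as was the summing of Ccnb1 with its copies. With 3 libraries per group the standard errors of the members' line differences were 0.08 to 0.21, and the least counted member had 318 counts in its lowest library.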

Other observations

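The genes described here were chosen after their values were seen, from the lists counted above. Among the other G2/M genes, Cdc25b, the phosphatase that starts Cdk1 activation at centrosomes, fell more than any of the 48 members. It stood at 31.6, 39.2 and 43.9 CPM in OVA-pulsed CtrV and 8.32, 16.9 and 19.2 CPM in OVA-pulsed EKO-labelled cells, without overlap (log2 fold change -1.42 ± 0.22, SE, and -1.09 ± 0.22 unpulsed). Among the Cdk inhibitors, Cdkn2b (p15), which blocks the kinases that D cyclins activate, was higher. It stood at 15.6, 7.52 and 6.66 CPM in OVA-pulsed CtrV against 56.2, 34.2 and 47.7 CPM in EKO-labelled cells (2.22 ± 0.25), and at 8.74, 11.4 and 11.2 against 41.5, 45.7 and 37.8 CPM unpulsed (1.99 ± 0.25). Every EKO-labelled library of Cdkn2b was above every CtrV library. Cdkn2a, from the neighbouring gene, was higher as well at much lower levels (0.93 ± 0.18 and 0.98 ± 0.18, group means of 2.47 and 4.76 CPM after OVA), while the p53 target Ccng1 was lower (-0.67 ± 0.08 and -0.68 ± 0.08).

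The promoter letters that most members share were also counted in genes outside all lists. Of 574 such tested genes with both a CHR and a CCAAT box in the RefSeq window, 156 were called lower (27.2%) and 159 higher (27.7%) after OVA, with a median log2 fold change of 0.01. Of 8148 such genes without both motifs together, 22.4% were called lower and 29.2% higher (median 0.03). Unpulsed, 24% of the 574 were called lower and 26.8% higher (median 0.02), beside 22.9% and 28.4% of the 8148 (median 0.03). The differences between these shares were not tested.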
